A study of Mus musculus with 52 samples.

Results

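Near-closed promoters were taken here as autosomal promoters that gave almost no signal in untreated mouse embryonic stem cells (mESCs) by calibrated ATAC-seq (cATAC-seq). In this assay the Tn5 transposase inserts adapters into accessible DNA, and Drosophila SG4 cells added to the mESCs give a reference by which mouse reads are scaled, so that 1 calibrated read is 1 mouse read divided by a spike-in size factor. A promoter was near-closed where the mean of the untreated libraries was under 10 calibrated reads over its 400 bp interval in each of 4 conditional lines. Promoters of chemosensory receptor genes were left out by symbol. The rule left 1694 promoters of 20633 in the tables, or 8.51% of the 19900 on autosomes. Of the 2124 autosomal promoters under the ceiling, 430 belonged to chemosensory receptors. The untreated values chose the set, so the untreated levels are a description. Comparisons of treated with untreated members use these capped values too and lean upward.

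The 4 lines carry loxP sites in the KDM2 genes and a CRE recombinase that tamoxifen activates. KDM2A and KDM2B bind unmethylated CpG islands through a ZF-CxxC domain and carry a JmjC demethylase domain. In Kdm2a/b-JmjCfl/fl cells tamoxifen deletes the JmjC exons of both genes, in Kdm2a/b-CXXCfl/fl cells the ZF-CxxC exon of both genes, and in Kdm2a-CXXCfl/fl and Kdm2b-CXXCfl/fl cells the ZF-CxxC exon of the named gene. Untreated cells hold the same floxed alleles and CRE, undeleted, and treated cells received 800 nM 4-hydroxytamoxifen for 96 h. There were 3 untreated and 3 treated ATAC libraries per line, and 4 of each in Kdm2a/b-CXXC, 26 in all. The JmjC line was derived from mice, whereas the Kdm2a-CXXC and Kdm2a/b-CXXC lines are edited clones, so a line is 1 genetic background and differences between lines cannot be told apart from differences between clones. Treated cells without floxed alleles were not analysed here. The study's methods call the replicates biological, but the labels do not say what separates them, and the p-values measure the spread between these libraries.

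In mESCs most promoters lie in CpG islands, which stay free of DNA methylation and are accessible even where the gene is silent. Promoters with few CpG dinucleotides depend on factors of a particular cell type and are closed elsewhere. Genes for secreted proteins, immune receptors and structural proteins of skin or placenta often have promoters of this second kind, and many lie in clusters of tandem copies.

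The sequence upstream of 5 near-closed promoters shows this composition. They were picked among members on 18 of the 19 autosomes whose interval is centred within 50 bp of the annotated start, and superlatives here hold among those. Each line below gives the 200 bases before the transcription start, 5′ to 3′ on the gene's strand, in GRCm38.p6, with CpG dinucleotides in capitals. 1700030L20Rik (chr3:136449350-136449549, minus strand), a non-coding transcript with 1 of the highest treated means, holds 2 CpGs in this stretch. 1700010K23Rik (chr16:66656918-66657117, plus strand) had the highest CpG ratio of the set, with 7. C4bp (chr1:130661619-130661818, minus strand), a regulator of complement, and Ddr2 (chr1:170088945-170089144, minus strand), a collagen receptor, sit at the median GC content of the set, with 2 and 1. Entpd5 (chr12:84400935-84401134, minus strand), which encodes a nucleotide diphosphatase of the endoplasmic reticulum, had the highest treated mean among those with TATAAA in the 50 bases before the start, also in capitals.
1700030L20Rik: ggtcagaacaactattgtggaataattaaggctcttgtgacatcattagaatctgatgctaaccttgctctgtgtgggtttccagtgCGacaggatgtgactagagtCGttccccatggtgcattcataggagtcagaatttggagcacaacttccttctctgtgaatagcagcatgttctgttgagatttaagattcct
1700010K23Rik: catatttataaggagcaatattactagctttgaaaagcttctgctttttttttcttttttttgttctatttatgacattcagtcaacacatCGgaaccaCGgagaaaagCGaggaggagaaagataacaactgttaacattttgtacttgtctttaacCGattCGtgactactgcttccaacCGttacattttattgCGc
C4bp: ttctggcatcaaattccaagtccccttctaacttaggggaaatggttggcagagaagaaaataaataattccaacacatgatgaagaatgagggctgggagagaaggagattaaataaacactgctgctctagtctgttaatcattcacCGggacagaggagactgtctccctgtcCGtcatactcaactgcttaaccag
Ddr2: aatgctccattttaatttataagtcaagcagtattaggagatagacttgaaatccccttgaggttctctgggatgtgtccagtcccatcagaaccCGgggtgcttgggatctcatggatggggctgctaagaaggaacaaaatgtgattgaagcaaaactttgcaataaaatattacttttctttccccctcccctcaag
Entpd5: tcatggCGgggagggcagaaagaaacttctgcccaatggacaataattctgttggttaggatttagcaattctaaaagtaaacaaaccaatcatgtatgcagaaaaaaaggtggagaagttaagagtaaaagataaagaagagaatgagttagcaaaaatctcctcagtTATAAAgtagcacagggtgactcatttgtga

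Near-closed promoters held fewer CpGs than promoters at large. The median was 4 CpGs per 400 bp, against 24 over all promoters, and 91 members (5.37%) had 0 CpGs, against 1.11% of all promoters. GC content had a median of 45% in the near-closed set and 60.3% in all promoters. A promoter was called CpG-rich where GC content reached 0.5 and the ratio of observed to expected CpGs reached 0.6. By that definition 0 of 1694 were CpG-rich, against 54.6% of all promoters. The GC limit was reached by 326 members (19.2%) and the CpG ratio by 8 (0.472%). The 430 near-closed chemosensory promoters were poorer still, with a median of 2 CpGs and a GC content of 37.1%.

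**Figure D1:**
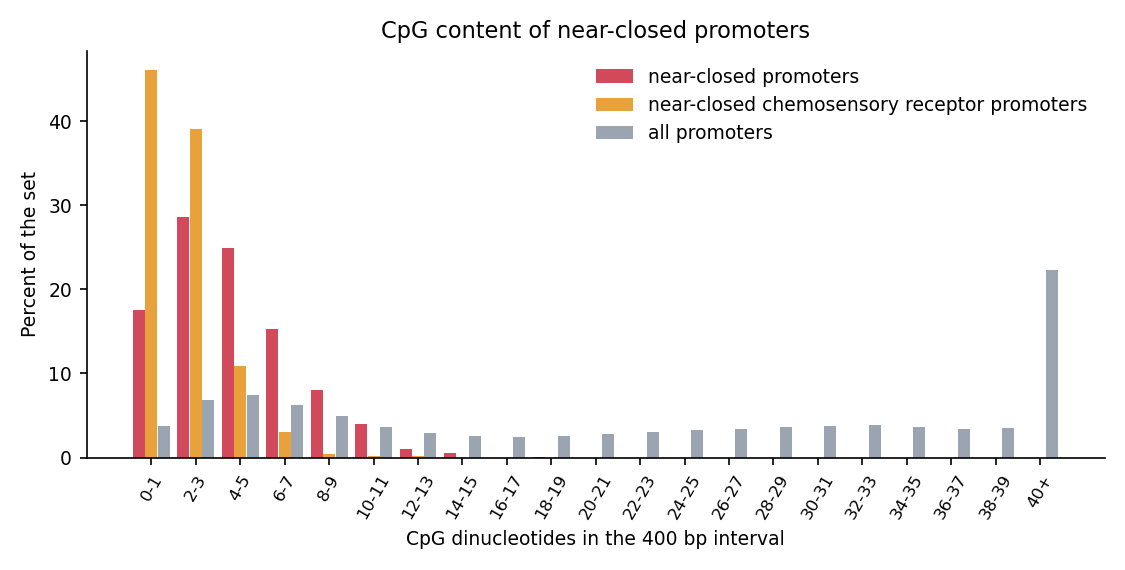
Number of CpG dinucleotides in the 400 bp interval (x axis, bins of 2, the last bin open) against the percent of each set (y axis) for 1694 near-closed promoters, 430 near-closed chemosensory receptor promoters and all promoters. The near-closed promoters have a median of 4 CpGs and none has more than 18, whereas the median over all promoters is 24.

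Composition did not by itself place a promoter in the set. Of 2095 autosomal promoters outside the chemosensory genes with a GC content under 0.5 and a CpG ratio under 0.3, 1053 (50.3%) were near-closed, against 8.75% of the 19356 promoters in this group at large. These 1053 made up 62.2% of the set. TATAAA, read on the gene's strand, was sought in the 50 bases before the interval's centre. Of members with an annotated strand, 120 of 1635 (7.34%) had it, against 2.57% of 20407 promoters. The centre lay within 50 bp of the annotated start in 1525 of the 1635. The GC box GGGCGG, on either strand of the 200 bases before the centre, was in 3.98% of members and 45.6% of promoters. CCAAT, on either strand of the same stretch, was in 29.3% and 29.9%. A match is a description of the letters and not a site. Soft-masked repeats covered a mean of 12.9% of a near-closed interval and 7.96% of a promoter interval at large. Since reads that mapped more than once were removed, repeated sequence was also checked. An 80-base word that occurs elsewhere in the genome was found in 12 members (0.708%) and in 0.931% of all promoters. The highest share of an interval made up of such words was 12.1% in any member.

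The near-closed share differed between gene classes and was highest in the prolactin family. Classes were counted by symbol pattern among autosomal promoters outside the chemosensory genes, where the near-closed share was 8.75%, and membership follows from the untreated values, so the shares carry no test. Patterns also catch genes of other function, such as the casein kinase subunit partner Csnka2ip under the caseins and Ms4a genes under the immunoglobulin-like receptors. How many was not counted, so a share describes the pattern and not a function. The prolactin family, placental hormones related to the pituitary hormone Prl, had 15 of 18 promoters near-closed (83.3%). Mas-related and formyl peptide receptors, which sense itch stimuli and bacterial peptides, had 7 of 13. Placental cathepsins and Psg/Ceacam genes had 9 of 18, keratin-associated proteins of the hair shaft 9 of 19 and defensins, antimicrobial peptides of epithelia, 12 of 26.

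Shares between 19.6% and 44% were found in several other classes. Cornified envelope genes, which build the outer layer of skin, had 14 of 33 promoters near-closed (42.4%). Lectin-like genes, among them receptors of natural killer cells, had 15 of 36 (41.7%). Serpins, protease inhibitors of plasma and tissue, had 14 of 38 and conjugation enzymes and esterases of liver and gut 19 of 53. Seminal and secretory tract proteins had 25 of 72. The pattern for caseins and milk proteins had 6 of 18. The median untreated level of these 18 was 43.3 calibrated reads, so many were open, and how many are milk genes was not checked. The class of immunoglobulin-like and other immune surface proteins had 32 of 125 (25.6%). Kallikreins and trypsin-like proteases had 17 of 68 and chemokines and interleukins 21 of 107 (19.6%). MicroRNA and small RNA hosts had 22 of 50.

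Homeobox and zinc finger genes had shares under the 8.75% of the whole group. Homeobox genes had 6 of 125 (4.8%), among them Pax4, a regulator of pancreatic endocrine cells. Zinc finger genes had 6 of 330 (1.82%). Ion channels and transmitter receptors, with 16 of 264 (6.06%), and solute carriers, with 32 of 384 (8.33%), lay nearer to it. Predicted and clone-named genes had 492 of 1937 (25.4%), the largest class by number and 29% of the set. Non-coding identifiers made up 30.2% of the set and 10.0% of all promoters. The other 797 members (47.0%) were in no class. Among globins 2 of 4 promoters were near-closed, those of the embryonic genes Hbb-y and Hbb-bh1, silent outside erythroid cells. Type I interferons had 1 of 3, Ifnb1, the interferon beta gene.

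**Figure D2:**
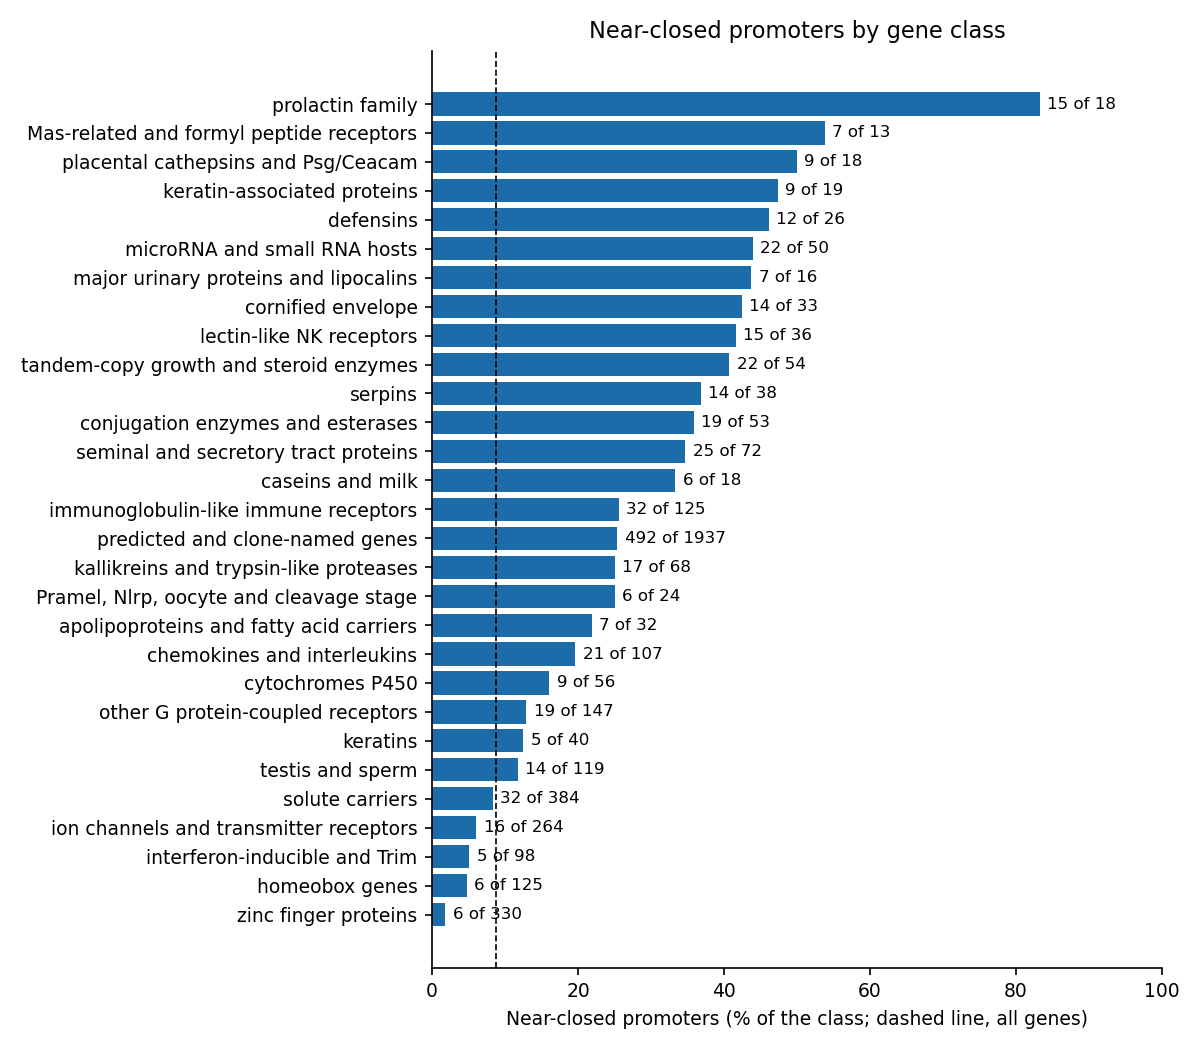
Percent of promoters of each gene class that were near-closed (x axis) for the classes with at least 5 members (y axis), with the number near-closed of the number in the class beside each bar. The dashed line marks 8.75%, the share over all autosomal promoters outside the chemosensory genes, and the prolactin family stands highest at 83.3%.

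Levels spread within each class, while the class medians lay close together. The treated means averaged over the 4 lines ran from 3.8 to 8.05 calibrated reads in the prolactin family (Prl 3.8, Prl4a1 7.23, Prl5a1 8.05). They ran from 3.15 to 9.56 in defensins (Defb38 9.12, Defb19 9.56) and from 4.44 to 9.77 in cornified envelope genes (Lce3f 9.77). In lectin-like genes the range was 3.89 to 7.96 (Klrd1 7.77, Clec3b 7.90). In the class of immunoglobulin-like and other immune surface proteins it was 3.24 to 10.8 (Fcgr3 9.99, Ms4a15 10.8). Highest in its class was Klk14, an epidermal protease, at 10.5 among the kallikreins, and Ces2f, a carboxylesterase, at 11 among the conjugation enzymes. The class medians of the 17 classes with 10 or more members all lay between 5.55 and 7.19.

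In the order of autosomal promoters, 1077 of the 1694 had no member next to them, 617 did, and 71 were in 12 runs of at least 5. How many neighbours chance would give was not computed. The longest run held 10 promoters over 825 kb of chromosome 5 (chr5:87000660-87825896), from the UDP-glucuronosyltransferase gene Ugt2b35 through the sulfotransferase genes Sult1d1 and Sult1e1 to the casein genes Csn1s1, Csn2, Csn1s2a and Csn1s2b. Their reads over the 13 treated libraries ran from 39 (Csn2) to 102, with a median of 56.0 against 83.0 over all members. The next run, of 7 promoters on the same chromosome (chr5:87979152-88528097), held the enamel protein genes Amtn, Ambn and Enam and the antibody joining chain Jchain. Runs of 6 and 5 on chromosome 13 held Prl, Prl3c1, Prl3b1, Prl3a1, Prl6a1 and Prl8a2, and Prl8a6, Prl8a8, Prl8a9, Prl8a1 and Prl7b1. A run of 5 on chromosome 10 held Dcn, Lum, Kera and Epyc, proteoglycans of connective tissue and cornea. The Dcn promoter here is 1 of 2 in the tables, and the other was not near-closed.

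Some members were second promoters of genes with an open promoter elsewhere. For 238 members the tables held another promoter of the same gene, and for 133 of these the other promoter had a treated mean over lines of at least 50 calibrated reads. Counted over the 238 whatever its level, another promoter was CpG-rich for 130. Nf2, a tumour suppressor of the cytoskeleton, had a near-closed promoter (chr11:4832936-4833335) at 7.74 and an open one 16.4 kb away at 479. Numb, a regulator of Notch signalling, had a near-closed promoter (chr12:83876613-83877012) at 10.2 and an open one 45.1 kb away at 287. Tsga10, a sperm tail gene, had 5.50 at chr1:37855174-37855573 and 439 at a promoter 9.71 kb away. Curated transcripts gave another start over 1 kb away that was CpG-rich for 198 members (11.7%), against 6.95% of all promoters. The interval's centre lay over 500 bp from the start of its own annotated transcript in 64 of 1635 members (3.91%), against 1.24% of 20407 promoters. One of these was Psmc1, a proteasome subunit used by all cells, whose interval (chr12:100112131-100112530) is 2129 bp downstream of the annotated start, in exon 2. Such intervals measure a site that is not the annotated start, and a low value there says nothing of the start itself.

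The chromosome of a promoter moved with its place in the set. Among the 2095 CpG-poor promoters defined above, 16 of 113 on chromosome 11 were near-closed (14.2%), against 31.9% on chromosome 1, 39.5% on chromosome 8 and between 43.8% and 67.3% on each of the other autosomes. The median reads of the CpG-poor promoters on chromosome 11 were 1.45 to 1.60 times those on the other autosomes in the 4 lines. On chromosome 1 this ratio ran from 1.00 to 1.47 and on chromosome 8 from 0.92 to 1.3, depending on the line. To see the lines apart from the rule, promoters were chosen on the untreated values of the other 3 lines only, and the share of their reads on each chromosome was compared in the treated libraries. In Kdm2a/b-JmjC the share was 1.35 times that of the other lines on chromosome 1 (1.33 to 1.39 over 3 libraries) and 1.31 times on chromosome 8 (1.28 to 1.33). In Kdm2a-CXXC it was 1.21 times on chromosome 3 (1.19 to 1.23) and 1.20 times on chromosome 14 (1.18 to 1.24). Over the near-closed set itself, which all 4 lines chose, the Kdm2a-CXXC share was 1.25 times on chromosome 3 but 0.969 times on chromosome 14. The shares of the reads of all promoters moved in the same way, by 1.29, 1.25, 1.22 and 1.17 times. Whether these chromosome-wide levels set which promoters fell under the ceiling was not tested.

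**Figure D3:**
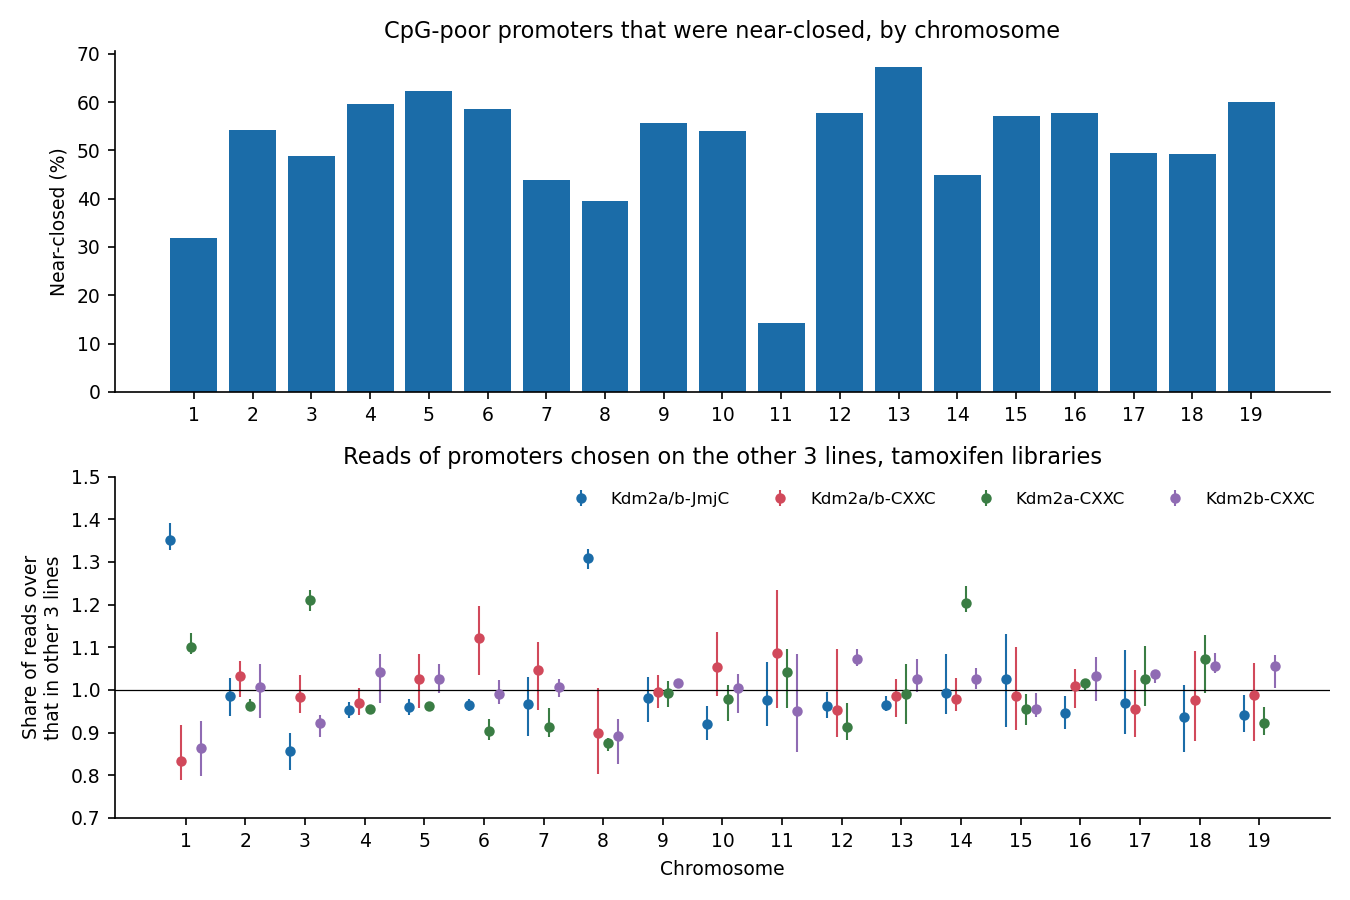
Upper panel, percent of CpG-poor promoters that were near-closed (y axis) on each autosome (x axis), lowest at 14.2% on chromosome 11. Lower panel, share of reads on each autosome relative to the other 3 lines (y axis) for promoters chosen on those lines, as the mean and range over the treated libraries of each line; Kdm2a/b-JmjC stands at 1.35 on chromosome 1 and 1.31 on chromosome 8.

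The values rest on few reads. The libraries held between 1488370 and 3025358 promoter reads with size factors between 0.718 and 1.41, and the median member had between 4 and 9 reads in a library, against 58 to 108 for the median promoter. Members took between 0.444% and 0.688% of promoter reads. Between 14 and 163 members had 0 reads in a given library, but 0 members had 0 reads in all 26, where a count of 0 allows up to 3 reads. The lowest was Mir669h with 49 reads and the highest Tex55 with 297. Variance between replicate libraries was 1.81 to 1.89 times that of counting alone over the members of each group, and 1.91 to 2.19 times over all promoters. The embryonic stem cell markers Pou5f1, Nanog, Sox2, Klf4, Zfp42, Tdgf1, Lin28a and Tbx3 were open, with untreated means between 52.1 and 342. Esrrb, also a marker, had 1 promoter between 44.8 and 65.9 and another between 8.45 and 12.1 over the lines, the latter near the ceiling. No promoter of the stem cell, endoderm, mesoderm or neural marker lists was a member. Of the 5 fibroblast promoters 1, at Dcn, was. The Kdm2a promoter and the 2 Kdm2b promoters had means over lines of 145, 160 and 38.6 after tamoxifen, and since the deleted exons lie outside them they do not check the deletion.

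Low levels still differed between members beyond counting. Over the 13 treated libraries, which the rule did not use, the members had a median of 83.0 reads (5th to 95th percentile 47 to 124), and the variance over members was 6.39 times the mean, where counting alone gives 1. Reads in the treated libraries followed those in the untreated ones over the 1694 members (Spearman's rho 0.636, Pearson's r 0.656, given as a description, since both share the interval and its composition). They were also higher at higher GC content (rho 0.525), from a median of 65.0 reads below 40% GC to 99.0 at 50% or more, and lower with the distance to the nearest open promoter (rho -0.260), here 1 with an untreated mean over lines of at least 50. The median was 91.0 reads where such a promoter was 2 to 10 kb away and 76.0 where it was over 200 kb away. Reads per member were 1.09 to 1.34 times those per near-closed chemosensory promoter in the 26 libraries.

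After tamoxifen the members stayed low. Their median calibrated level was 5.99 untreated and 5.77 treated in the Kdm2a/b-JmjC line. It was 4.42 and 5.08 in the Kdm2a/b-CXXC line, 6.81 and 7.17 in the Kdm2a-CXXC line, and 5.98 and 7.59 in the Kdm2b-CXXC line. Over all promoters the medians were 71.9 and 60.7, 62.3 and 65.7, 82.1 and 71.4, and 92.7 and 96.9 in the same order. In 0 members and in none of the 4 lines did the treated mean reach 20 calibrated reads, 2 times the ceiling of the rule. The highest treated mean was 18.3 in the Kdm2a/b-JmjC line (Nr1i2), 14.8 in the Kdm2a/b-CXXC line (Tex55), 16.0 in the Kdm2a-CXXC line and 19.9 in the Kdm2b-CXXC line (Bcas1). Single libraries went higher. At least 1 treated library reached 20 in 179 members (10.6%), 2 treated libraries did in 14, and 0 members had 3 such libraries. Of the single-library values, 115 came from replicate 1 of treated Kdm2b-CXXC, in which 1 read was worth 1.39 calibrated reads and the mean member had 11 of them, and 42 from replicate 3 of treated Kdm2a-CXXC, in which 1 read was worth 1.27. Leaving out treated replicate 2 of Kdm2b-CXXC put 9 members at 20 or more, and leaving out treated replicate 1 put 1 there. In Kdm2a-CXXC 5 members were at 20 or more without treated replicate 1, and in Kdm2a/b-JmjC 2 were without treated replicate 3.

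**Figure D4:**
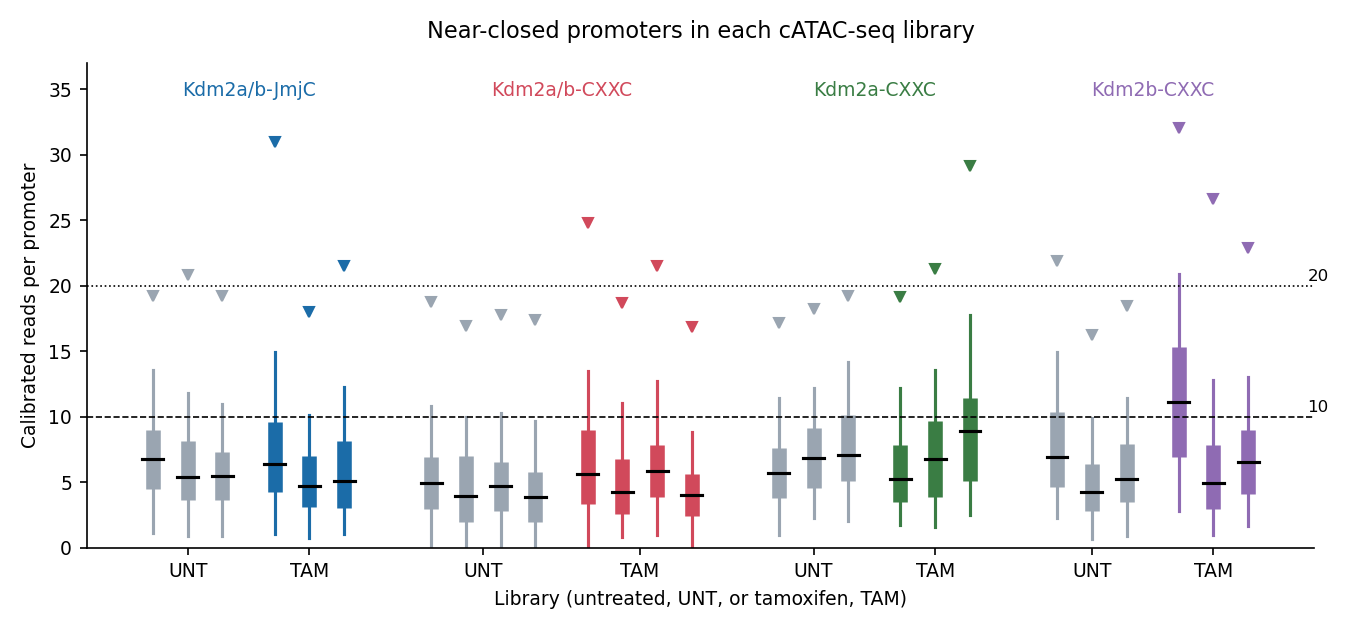
Calibrated reads per near-closed promoter (y axis) in each of the 26 libraries (x axis, grouped by line and treatment; grey, untreated; colour, tamoxifen). Thick bars span the quartiles, thin lines the 5th to 95th percentile, black dashes the median and triangles the highest member; the dashed line is the ceiling of 10 and the dotted line 20. The median is under 10 in all libraries but replicate 1 of treated Kdm2b-CXXC, which stands above the others of its group.

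A level of 10 calibrated reads, the ceiling itself, was passed by more members. The treated mean was at least 10 for 97 members in the Kdm2a/b-JmjC line and for 40, 274 and 389 in the other lines, in the order given above. All untreated means were under 10 by the rule, so these counts could only be at or above those of untreated cells. Choosing promoters on the other 3 lines removes this constraint. Of 1930 such promoters, 236 untreated and 154 treated means were at least 10 in Kdm2a/b-JmjC. For Kdm2a/b-CXXC the counts were 28 and 48 of 1722, for Kdm2a-CXXC 483 and 517 of 2177, and for Kdm2b-CXXC 233 and 526 of 1927. At 20 or more there were 0 untreated and 1 treated for Kdm2a/b-JmjC, 0 and 1 for Kdm2a/b-CXXC, 11 and 11 for Kdm2a-CXXC, and 2 and 5 for Kdm2b-CXXC.

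Of the promoters chosen in this way, 13 had a mean of 20 or more after treatment only, 1 in each line with both genes floxed, 6 in the Kdm2a-CXXC line and 5 in the Kdm2b-CXXC line. Every treated library lay above every untreated one for 3 of the 13 (9030204H09Rik, 1700061I17Rik and Ankrd22). Another 8 had a mean of 20 or more in untreated cells only, 6 in Kdm2a-CXXC and 2 in Kdm2b-CXXC, and every treated library lay below every untreated one for 1 of the 8, Cacng5, a calcium channel subunit with 20.1, 24.4 and 22.3 untreated and 11.3, 9.68 and 7.61 treated in Kdm2a-CXXC. Promoters here are named after their values were seen. Some of the 13 lie on chromosomes that stood high in their line. In treated libraries the share of all promoter reads was 1.29 times that of the other lines for Ikbke (chromosome 1). In Kdm2a-CXXC it was 1.15 times for Il1r2 (chromosome 1), 1.22 times for 1700061I17Rik (chromosome 3), and 1.17 times for Mir3964 and 9630013A20Rik (chromosome 14). For the rest of the 13 it lay between 0.989 and 1.04 times. The part of these levels was not tested. Ikbke, a kinase of innate immune signalling (chr1:131279364-131279763), had 13.6, 15.4 and 14.7 calibrated reads in untreated Kdm2a/b-JmjC libraries and 31.0, 18 and 12.3 after tamoxifen. The treated values lay on both sides of the untreated ones. Dhrs9, a retinol dehydrogenase (chr2:69380262-69380661), had 28.6, 12, 8.43 and 13.6 in untreated Kdm2a/b-CXXC libraries and 25.9, 22.1, 18.6 and 16.9 in treated ones. These libraries overlapped as well. In Kdm2a-CXXC the interleukin decoy receptor gene Il1r2 had 13.4, 16.8 and 5.07 untreated and 20.05, 14.5 and 29.2 treated, and the non-coding 9030204H09Rik had 16.2, 20.6 and 9.12 untreated and 20.9, 27.1 and 22.8 treated. In Kdm2b-CXXC Ankrd22 had 15.0, 9.91 and 14.0 untreated and 30.6, 15.8 and 27.8 treated, and Cd276, an immune checkpoint ligand, had 47.4 in treated replicate 1 and 10.8 and 17.1 in the others.

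The summed signal gave ratios from 0.991 to 1.31, with overlapping libraries. Treated over untreated, the summed calibrated signal of the members was 0.991 ± 0.151, 1.14 ± 0.218, 1.10 ± 0.224 and 1.31 ± 0.465 in the same order of lines (SD of the treated libraries over the untreated mean, n = 3, 4, 3 and 3). Treated and untreated libraries overlapped in every line. In Kdm2b-CXXC the ratio was 1.04 without treated replicate 1 and 1.53 without untreated replicate 1. Replicate 1 was the highest library of both groups in this line, with means over members of 7.75 untreated and 11.04 treated. Leaving it out of 1 group only therefore moves the ratio. In Kdm2a-CXXC and Kdm2b-CXXC each treated library had a higher mean over members than the untreated library of the same number. The rule capped the untreated values of these members, so nothing is read from this. For promoters chosen on the other 3 lines it did not hold in Kdm2a-CXXC. There the lowest treated mean, 6.65, lay below all untreated ones, of which the lowest was 6.71. In Kdm2b-CXXC those means ran from 5.10 to 8.85 untreated and from 6.05 to 11.5 treated. Neither the overlap nor the permutation tests below use the replicate number. Scaled to total promoter reads, the Kdm2a/b-JmjC ratio was 1.14, on the other side of 1. For promoters chosen on the other 3 lines the ratios were 0.929, 1.12, 1.01 and 1.22, with p = 0.5, 0.343, 1.0 and 0.6 by two-sided exact permutation tests over libraries (adjusted p between 0.8 and 1.0 over the 4 lines). The smallest p that 3 libraries against 3 allow is 0.1, and for 4 against 4 it is 0.0286.

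As a share of promoter reads, which does not use the spike-in, treated and untreated libraries did not overlap in 2 lines. Chosen on the other 3 lines, they took 0.686% to 0.791% of promoter reads in untreated and 0.816% to 0.903% in treated Kdm2a-CXXC libraries, and 0.563% to 0.577% and 0.588% to 0.696% in Kdm2b-CXXC. The groups did not overlap in either line, and the ratio of mean shares was 1.14 and 1.13 (exact permutation p = 0.1 in each, the smallest these groups allow, adjusted p = 0.2). The libraries overlapped in Kdm2a/b-JmjC (ratio 1.07, p = 0.5) and in Kdm2a/b-CXXC (ratio 1.05, p = 0.743, exact permutation). The 544 autosomal chemosensory promoters, chosen by symbol and not by signal, gave 1.06 with overlapping libraries in Kdm2a-CXXC (exact permutation p = 0.3) and 1.14 without overlap in Kdm2b-CXXC (exact permutation p = 0.1). Over all promoters the calibrated signal changed by a factor of 0.883 in Kdm2a-CXXC and 1.07 in Kdm2b-CXXC, and its part in the shares was not tested.

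Individual promoters were compared with limma across all promoters, and a call needed a fold change over 1.4 with p under 0.05 after Benjamini-Hochberg adjustment. The filter on low reads passed 95, 25, 216 and 290 members, in the order in which the lines were introduced. A member could pass only if its treated libraries were high, so nothing is read from those that passed, and the fit was also made with no filter on 1693 or 1694 members. In both fits 0 members were called in any line. Over all promoters 0.0757%, 0.0%, 0.0% and 0.0% were called with the filter, and 0.0533% in Kdm2a/b-JmjC and 0.0% in the others without it, in the order of the lines above. edgeR (with and without the filter) and DESeq2 also called 0 members, and over all promoters of Kdm2a/b-JmjC they called 0.664%, 0.0776% and 0.063%, against 0.0% in the other lines. Among promoters chosen on the other 3 lines 0 were called by limma in any line. At this depth a member's log2 fold change had a median standard error between 0.60 and 0.68 in the fit with no filter. Changes well above that size also went uncalled, such as -2.72 at Amy1 in Kdm2a/b-CXXC and 2.14 at Apoa4 in Kdm2b-CXXC. The absence of calls therefore says little about changes at single members. The median log2 fold change over all promoters was -0.20, 0.09, -0.17 and 0.10 in the same fit, and over members 0.00, 0.18, 0.11 and 0.30.

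Without adjustment, members past a limma p of 0.05 in the fit with no filter numbered 46, 99, 53 and 84 in this order (40, 73, 42 and 69 by edgeR, 16, 48, 20 and 47 by DESeq2). Of these 19, 81, 34 and 82 were higher after tamoxifen, or 1.12%, 4.78%, 2.01% and 4.84% of members, against 0.412%, 3.73%, 0.587% and 1.03% of all promoters. The lower ones were 1.59%, 1.06%, 1.12% and 0.118% of members, against 17.5%, 1.11%, 7.21% and 0.184% of all promoters. Since the rule capped the untreated values alone, the share higher among members leans upward by construction and nothing is read from it. In promoters chosen on the other 3 lines, every treated library lay above every untreated one in 3.01%, 2.73%, 3.77% and 7.21%, against 1.22%, 1.95%, 1.46% and 2.65% of all promoters. Every treated library lay below in 6.53%, 0.755%, 4.36% and 1.71%, against 20.5%, 0.645%, 12.2% and 0.616%. The shares of all promoters include shifts of whole libraries (median log2 fold change -0.20, 0.09, -0.17 and 0.10). What chance alone would give was not computed.

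The highest members after tamoxifen varied widely between replicates. Tex55, named for its expression in testis, had calibrated reads of 7.91, 9.07 and 6.42 untreated and 18.2, 7.05 and 8.19 treated in Kdm2a/b-JmjC. The values were 6.91, 8.97, 9.37 and 5.81 untreated and 24.8, 9.34, 15.6 and 9.63 treated in Kdm2a/b-CXXC. It had 4.78, 11.4 and 12.2 untreated and 9.59, 15.5 and 17.8 treated in Kdm2a-CXXC, and 11.5, 4.25 and 7.02 untreated and 26.5, 7.89 and 18 treated in Kdm2b-CXXC. The treated mean was above the untreated mean in all 4 lines, but the libraries overlapped in each. Its log2 fold changes were 0.36, 0.77, 0.60 and 1.04, with limma adjusted p between 0.688 and 1.0.

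Only Tex55, 1700030L20Rik and Dnmt3l had treated means of at least 10 in all 4 lines, of 1694. Dnmt3l encodes a partner of the de novo DNA methyltransferases that is expressed in mESCs, and the interval here (chr10:78042087-78042486) is its most upstream start, with other annotated starts 7.56, 7.67 and 13 kb away. It had 10.2 ± 4.30, 11.2 ± 5.04, 14.6 ± 1.67 and 13.1 ± 6.86 calibrated reads after treatment, in the order of the lines above, against 8.27 ± 2.68, 8.76 ± 2.95, 9.96 ± 4.51 and 8.60 ± 0.733 untreated (SD, n = 3, 4, 3 and 3 per group), with overlap in each line. 1700030L20Rik had 12.6 ± 5.17, 13.4 ± 5.28, 15.5 ± 11.1 and 14.7 ± 6.98 treated against 7.79 ± 4.42, 6.91 ± 5.90, 8.27 ± 2.04 and 8.59 ± 9.54 untreated (same n), again with overlap throughout. In Kdm2b-CXXC a single untreated library of this promoter had 19.6.

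The other members with high treated means over lines were Cdyl (12.1), Tmem210 (11.9), Nr1i2 (11.7), Bcas1 (11.5), 2010310C07Rik (11.5), Bicra (11.4) and AI854703 (11.4). Cdyl encodes a chromodomain corepressor, and its interval (chr13:35659662-35660061) lies 81.5 kb from a CpG-rich start of the same gene. Bicra encodes a subunit of a SWI/SNF remodelling complex. Bcas1 (chr2:170427646-170428045), a gene of myelinating cells, had 10.4, 7.08 and 12.3 calibrated reads in untreated and 25.1, 16.8 and 18 in treated Kdm2b-CXXC libraries. The treated libraries all lay above the untreated ones, and in the other 3 lines the libraries overlapped. H6pd, a dehydrogenase of the endoplasmic reticulum whose CpG-rich start is 5.79 kb away, had 2.31, 9.91 and 7.02 untreated and 18.1, 13.8 and 20.4 treated in the same line, also without overlap. Both were named for high treated means while the rule capped untreated ones, so nothing is read from the separation. In Kdm2b-CXXC every treated library lay above every untreated one in 134 members (7.91%), against 2.65% of all promoters.

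The members with the smallest p in each line did not pass adjustment in these limma fits. Nr1i2, the pregnane X receptor of liver and gut (chr16:38294625-38295024), had 10.2, 3.63 and 1.83 calibrated reads untreated and 31.0, 14.9 and 9.21 treated in Kdm2a/b-JmjC. The libraries overlapped, and the log2 fold change was 1.72 ± 0.52 (SE, limma adjusted p = 0.0928). Galntl5, a glycosyltransferase-like gene of testis (chr5:25181280-25181679), had 12.4, 3.05 and 0 untreated and 13.1, 15.5 and 17.8 treated in Kdm2a-CXXC, a log2 fold change of 2.11 ± 0.59 (limma adjusted p = 0.631). Apoa4, an apolipoprotein of the intestine (chr9:46240644-46241043), had 8.07, 0 and 3.51 untreated and 16.7, 13.8 and 12.2 treated in Kdm2b-CXXC, a log2 fold change of 2.14 ± 0.67 (limma adjusted p = 1.0). In both the treated libraries lay above all untreated ones.

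Amy1, a salivary and liver amylase (chr3:113574563-113574962), went the other way. It had 9.88, 4.98, 16.9 and 7.74 calibrated reads in untreated and 0, 0, 1.96 and 0.802 in treated Kdm2a/b-CXXC libraries. The groups did not overlap, the log2 fold change was -2.72 ± 0.67, and the adjusted p was 0.185 by limma and 0.0817 by edgeR. In Kdm2a/b-JmjC the treated libraries (3.20, 3.13 and 4.09) also lay below the untreated ones (9.03, 5.44 and 4.58), while in Kdm2a-CXXC and Kdm2b-CXXC the groups overlapped. Amy1 has close paralogs next to it, and reads that mapped more than once had been removed, so its values may be affected. Repeated 80-base words made up at most 12.1% of the interval in any member, and their effect on Amy1 was not tested.

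**Figure D5:**
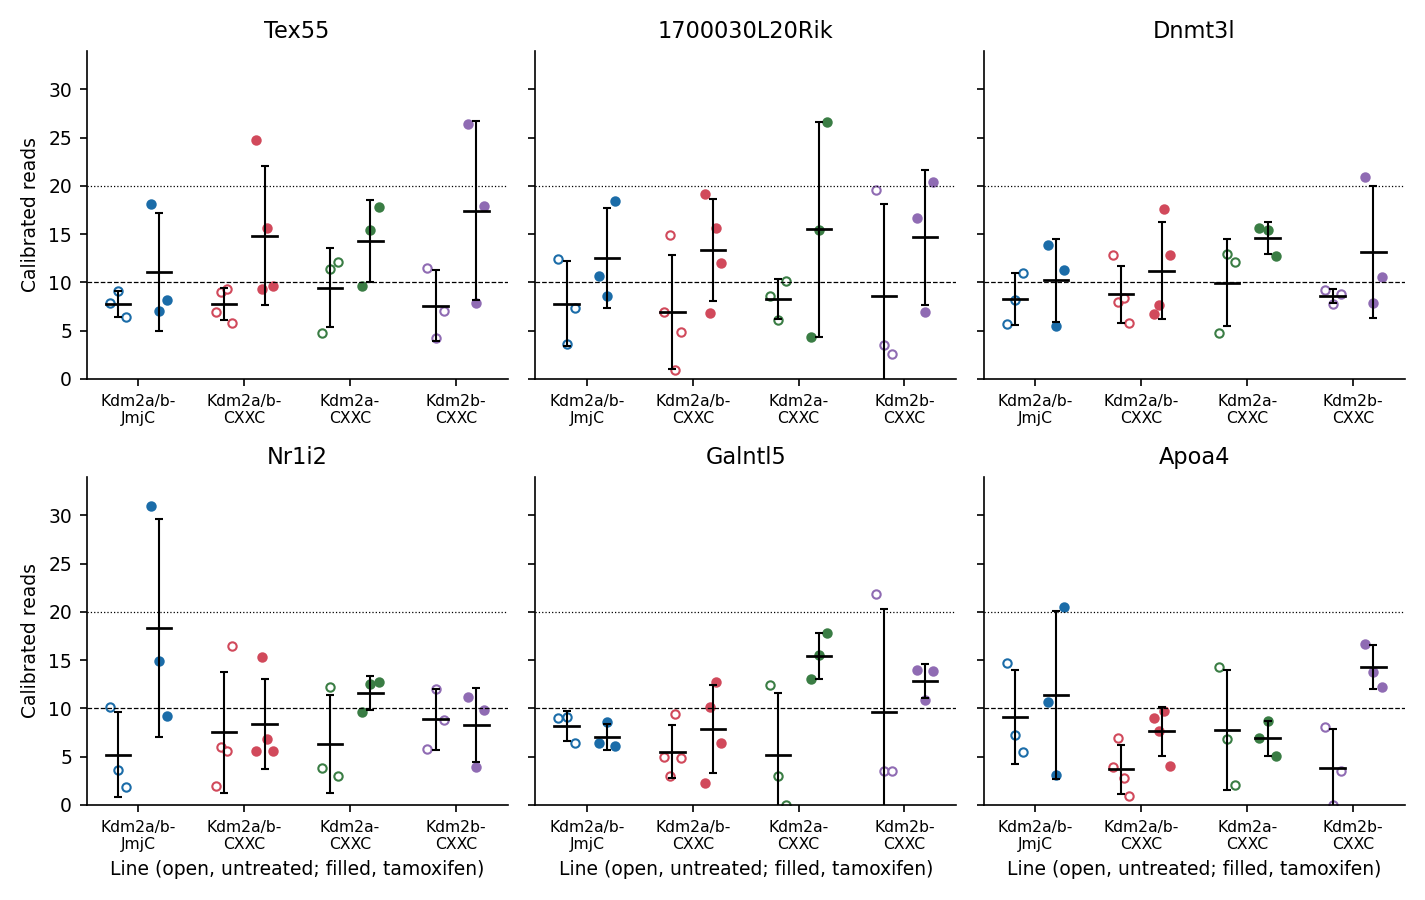
Calibrated reads (y axis) in each library for 6 near-closed promoters, by line (x axis; open points, untreated; filled points, tamoxifen), with the mean and SD in black; dashed and dotted lines mark 10 and 20. Treated points reach above 20 in single libraries, such as 31.0 for Nr1i2 in Kdm2a/b-JmjC, and the groups overlap in most panels.

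Some members stood apart in 1 line whatever the treatment. These were found by comparing the reads of a line with those expected from a promoter's share in the other 3 lines, and were chosen after their values were seen. The non-coding 4930448I18Rik (chr5:50151133-50151532, exon 1) had 0 reads in each of the 6 Kdm2a/b-JmjC libraries, and 44, 48 and 59 reads in the libraries of the other lines. At the share of the other lines 44 reads would have been seen, so with a floor of 3 reads over the 6 libraries the level was at least 14.7-fold lower. In the 3 treated libraries alone, which the rule did not use, there were 0 reads where 23 would have been seen. C7, a complement component (chr15:5063574-5063973), had 7 reads against 34.6 in the same line. There 2 members on chromosome 7, 4933405O20Rik (chr7:50598990-50599389) and the Mas-related receptor gene Mrgprx2 (chr7:48499071-48499470), had 11 against 41.1 and 12 against 43.4.

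Low reads in 1 line were also seen in Kdm2a-CXXC, at Pfkfb2, a regulator of glycolysis (chr1:130729054-130729453, 11 reads against 50.6), and Fgf14, a neuronal growth factor homologue (chr14:124676928-124677327, 12 against 51.3). Mir1958, on chromosome 1, was low in Kdm2b-CXXC (10 against 40.03) but high in Kdm2a/b-JmjC (51 against 22.1), so it did not stand apart in 1 line only. Reads were higher in 1 line at Tsga10 (60 against 26) and Il1rl1, the interleukin 33 receptor (61 against 26.7), both on chromosome 1 in Kdm2a-CXXC, and at Unc13c, a synaptic vesicle priming gene (chr9:73933368-73933767, in exon 2 and 35470 bp from its annotated start), in Kdm2b-CXXC (61 against 25.3). In each of these the untreated and the treated libraries of the line went the same way.

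The ceiling did not mark a natural break. The 5 members nearest to it, Nt5c2, A630073D07Rik, Rab11fip3, Tiam1 and Gm20757, had a largest untreated mean between 9.99 and 10.0, and treated means over lines of 8.97, 6.57, 11.3, 8.77 and 3.78. The 5 promoters just outside, Alkbh4, Spata31d1c, Dbpht2, Myocos and C230014O12Rik, had a largest untreated mean of 10.0 and treated means of 8.20, 9.33, 5.89, 8.93 and 7.61.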

How the data were processed

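Calibrated ATAC-seq was analysed in 26 libraries of 4 conditional mESC lines; 26 input genomic DNA samples were not analysed here. Per the study's methods, the authors aligned reads with Bowtie2 to mm10 and dm6, removed multi-mapping, duplicate, blacklisted and mitochondrial reads, counted reads over promoter intervals (400 bp in the deposited tables) and divided them by spike-in size factors, and the deposited library columns hold this calibrated signal (1 table per line). The deposited fold changes, scores and p-values of the authors' DESeq2 comparison were not used.

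Reads were recovered from the steps between values (100% whole within 0.01 of a read; 1488370 to 3025358 reads per library), which sets the filter and the precision; counting intervals cover counting error only. The ceiling of 10 was applied to untreated means. 39 members matched no symbol. Treated and untreated libraries were compared within each line with limma 3.58.1 on log2(calibrated reads + 1), a scale that understates changes at low values, after edgeR's filterByExpr; edgeR 4.0.16 and DESeq2 1.42.0 on recovered reads, TMM and median-of-ratios scaling, other pseudocounts, the replicate number as a block and leaving out libraries were alternatives. The fits were tested on simulated data. Composition, repeats and starts came from GRCm38.p6 (the same build as mm10) and RefSeq. Coordinates are 1-based.

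Members, gene classes and lists were chosen with earlier results of these data known. Promoters named were the 5 highest treated means per line, the 10 highest over lines, those nearest the ceiling, the 2 of each class with at least 10 members that were highest over all libraries, the smallest p per line, Kdm2a and Kdm2b, and a selection of them is described. Second promoters, runs, members that stood apart in 1 line, Prl, Csn2, Dcn, Pax4, Psmc1, Mir669h, the globins and Ifnb1 were named after their values were seen. Entpd5 was added to the sequences afterwards. Some sequences chosen by the same rule are not reported here. Sequences were shown only for intervals within 50 bp of the annotated start.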

Additional observations from a re-analysis of the deposited data

Results flagged for a closer look

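In groups of 4 libraries, which only Kdm2a/b-CXXC has, 1 library lay far from the other 3 (Dixon's gap over range) in 10 of 168 groups examined, near the 1 in 20 that chance gives. The share of promoter reads in near-closed promoters was 0.677% in treated replicate 3 and 0.491% to 0.521% in the other treated libraries. In calibrated reads, treated replicate 2 stood apart for Nr1i2 (15.3; others 5.62 to 6.85), Pate11 (3.39; others 7.22 to 7.88), Fgf14 (12.7; others 4.50 to 5.87) and Il1rl1 (2.55; others 7.22 to 7.88). Treated replicate 4 did so for Gabra6 (1.60; others 8.49 to 9.78), Slc7a1 (2.41; others 11.3 to 11.9) and Il12a (4.81; others 7.64 to 7.88). Untreated replicate 2 did so for Mir1958 (6.98; others 1.87 to 1.98) and untreated replicate 4 for Mir669h (1.94; others 0).

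Of 82 named members, 1 moved in opposite directions in different lines with no overlap between libraries. The near-closed Nf2 promoter was 7.05 calibrated reads higher after tamoxifen in Kdm2b-CXXC (3.30 untreated, 10.3 treated) and differed by -4.97 in Kdm2a/b-JmjC (9.32 untreated, 4.35 treated). The difference between the lines was not tested.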

How the results depend on the processing

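Ceilings of 5 and 20 gave 91 and 4300 promoters in place of 1694; scaling and recovered reads kept the number within 1.5-fold, and it ran from 1500 to 1807 without 1 untreated library. The CpG-rich share was 0.442% at a ceiling of 20. Members at 10 or more after tamoxifen numbered 97, 40, 274 and 389 (lines in the order Kdm2a/b-JmjC, Kdm2a/b-CXXC, Kdm2a-CXXC, Kdm2b-CXXC). At 20 or more, promoters chosen on the other 3 lines gave 1, 1, 11 and 5 against 0, and leaving out 1 treated library gave 0 to 2, 0, 0 to 5 and 1 to 9. The ratio of summed signal in Kdm2a/b-JmjC was 1.14 on total promoter reads against 0.991. Leaving out 1 library gave 0.913 to 1.06, 1.07 to 1.22, 0.978 to 1.20 and 1.04 to 1.53. Both ends of the last range leave out replicate 1 from 1 group only, and it was the highest library of both groups.

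Over all promoters, calls in Kdm2a/b-JmjC (13 by limma) were 0 with TMM or median-of-ratios scaling, 71 with a pseudocount of 5, 114 by edgeR, and 0 to 607 without 1 library (543 with no filter), highest without treated replicate 1. In Kdm2a/b-CXXC (0) they were 17 with TMM or median-of-ratios scaling (7 by TMM with no filter) and 0 to 8 without 1 library, in Kdm2a-CXXC (0) 0 to 43, highest without treated replicate 3, and in Kdm2b-CXXC (0) 1 with either scaling and 0 to 0 (2 with no filter and without untreated replicate 1). Without the filter and without treated replicate 1, C730027H18Rik (adjusted p = 0.0489) and Kcnj1 (adjusted p = 0.0336) were called lower in Kdm2a/b-JmjC by limma. Fits with no filter combined with another change were chosen after seeing the data. These causes were not tested.

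The replicate number was not taken to pair the samples, since across promoters the deviations of same-numbered libraries from their group means correlated by only -0.009 to 0.073. This does not see library-wide levels, and the mean over members was higher in the treated library of each same-numbered pair in Kdm2a-CXXC and Kdm2b-CXXC. The rule capped the untreated values of these members, and in Kdm2a-CXXC this did not hold for promoters chosen on the other 3 lines. By number, 16 of 26 correlated best with their own number (6 of 6 in Kdm2a/b-JmjC). With it as a replicate block, limma called 62, 0, 188 (145 with no filter) and 5 (1 with no filter) promoters, 1 of them a member (Galntl5 in Kdm2a-CXXC, log2 fold change 2.11, adjusted p = 0.0464).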
